A study of Mus musculus with 6 samples.

Results

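Here 10 genes of the fibroblast growth factor (FGF) pathway were followed in the newborn mouse inner ear: the ligands Fgf3, Fgf8, Fgf10 and Fgf20, the receptors Fgfr1 and Fgfr3, the feedback inhibitors Spry2 and Spry4, and the target transcription factors Etv4 and Etv5. They were chosen by name, with earlier results of these data known. They are 10 of the 39179 genes with a row in the count files, and all 10 were among the 14723 genes that were tested. RNA-seq libraries were made from the sensory epithelium of the cochlea (3 libraries) and of the vestibule (3 libraries) of wild-type C57Bl/6J mice at postnatal day 0, with male and female animals pooled. Tissue from at least 20 organs was pooled per sample and 450 ng of RNA went into each stranded mRNA library. All groups share strain, age and the absence of any treatment or mutation, so the comparison is one of 2 organs. The series' design text gives, for each tissue, 1 yield of RNA (2.4 µg for the cochlea and 1.5 µg for the vestibule) from 20 inner ears of 10 mice. The 3 libraries of a tissue may therefore share 1 pool of animals, and p-values measure only the spread between libraries, which may be technical.

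FGFs are secreted proteins that bind receptor tyrosine kinases together with heparan sulfate and activate the RAS and MAP kinase cascade. That cascade switches on the ETS-family transcription factors Etv4 and Etv5 and a set of inhibitors, among them the Sprouty proteins, which damp the same signal. In the inner ear, Fgf3 and Fgf10 take part in the induction and shaping of the otocyst, Fgf20 is needed for the lateral part of the organ of Corti, and Fgf8 from inner hair cells acts through Fgfr3 on the neighbouring pillar cells.

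Between 24464483 and 33664793 read counts per library fell on genes, so that 1 CPM (counts scaled to library size) stood for 24.5 to 33.7 counts. Of the 14723 genes tested, 11.6% were called higher in the cochlea against 15.8% higher in the vestibule, 27.4% in all, at an adjusted p under 0.05 (edgeR quasi-likelihood test, Benjamini-Hochberg), and at an adjusted p under 0.1 with a fold change of at least 1.3, 14.5% were higher in the cochlea. For 41.8% of the genes tested, all 3 libraries of one tissue lay above all 3 of the other. None of the hair cell and supporting cell markers was at 0 in any library. The summed level of 12 hair cell markers was 695 to 914 CPM in the cochlea against 1400 to 1714 CPM in the vestibule, and that of 12 supporting cell markers 1597 to 1708 CPM against 737 to 790 CPM. Gjb2 was the largest part of the supporting cell sum, with means of 718 and 177 CPM. Of the 12 supporting cell markers, 9 were called higher in the cochlea and 0 in the vestibule, and 3 (Hes1, Lfng and Gjb6) were not called. Summed markers of these other cell types were, like those of hair cells, higher in every vestibular library: dark cells and stria (1993 to 2374 against 9213 to 10628 CPM, most of it Oc90), melanocytes (40.7 to 65.1 against 295 to 352 CPM), macrophages (91.3 to 113 against 367 to 400 CPM), endothelium (199 to 269 against 446 to 626 CPM), Schwann cells (767 to 928 against 1361 to 1701 CPM) and mesenchyme (5285 to 6000 against 8138 to 9371 CPM, with Col1a2 the largest part). So were those of pillar and Deiters cells (467 to 515 against 574 to 789 CPM), whose calls are given with Fgfr3. Some single markers went the other way. Called higher in the cochlea were Lum (5.70-fold) and Pou3f4 of the mesenchyme, Emcn of the endothelium (3.49-fold), Barx2 of dark cells and stria (3.16-fold) and Cib2 of hair cells (1.78-fold). Barx2 passed the filter for testing (at least 1 CPM in at least 3 libraries) only through the cochlear libraries. Called higher in the vestibule were 4 mesenchyme, 6 endothelium, 5 dark cell and stria and 8 hair cell markers. Neuron markers leaned to the cochlea, with sums of 417 to 736 against 201 to 421 CPM, and 5 of the 9 tested were called higher there and 0 in the vestibule. The third cochlear library stood apart in 10 skeletal muscle markers, with 324 CPM against 14.1 to 35.2 CPM in the other 5. The part of these markers in the results on the FGF genes was not tested, and in bulk tissue fewer cells of a type and less RNA per cell cannot be told apart.

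Of the 10 genes, 4 were higher in the cochlea (Fgf10, Fgf20, Fgfr3 and Etv4), 1 was higher in the vestibule (Fgf3) and 5 were not called. Of all genes tested, 11.6% were higher in the cochlea and 15.8% in the vestibule. Fgf20 passed the filter for testing (at least 1 CPM in at least 3 libraries) only through the cochlear libraries. The median log2 fold change of the 10, vestibule minus cochlea, was -0.48, against 0.005 for all genes tested. Because the 10 genes and the pathway lists were chosen with earlier results of these data known, such medians and counts describe the lists and test nothing. For 6 of the 10 the libraries of the tissues did not overlap, 5 with the cochlea above and 1 with the vestibule above, beside 41.8% of all genes tested in either direction. One scaling choice bears on these fold changes: without TMM scaling the median of all genes tested moved from 0.005 to 0.125 on the log2 scale, and the log2 fold changes and calls given here are those with TMM. Levels in CPM and RPKM, their sums, and statements on whether libraries overlap are scaled by library size alone.

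**Figure D1:**
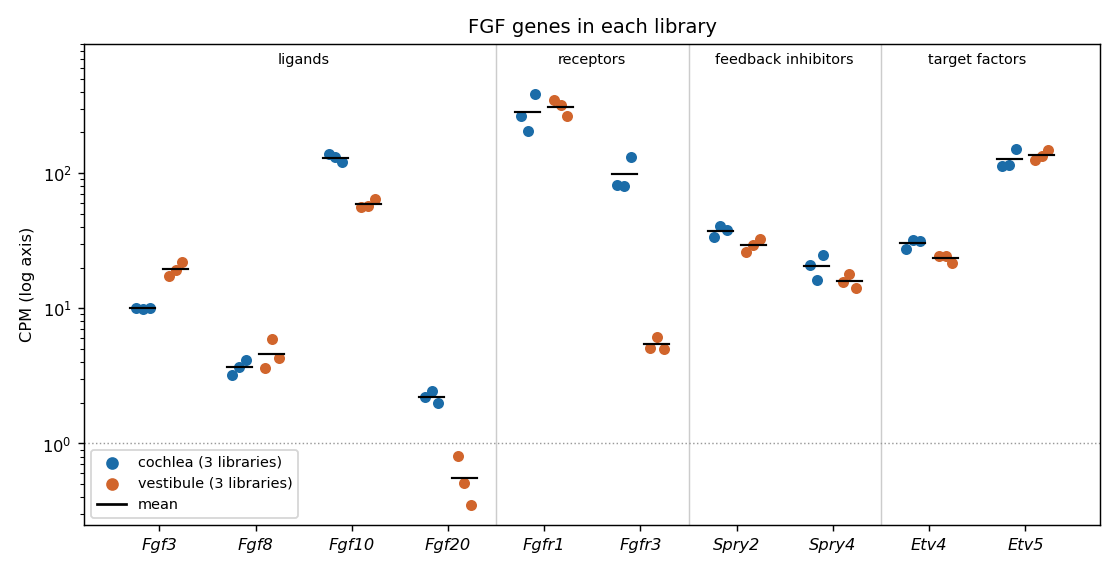
Level of each of the 10 genes in CPM (log axis) in the 3 cochlear and the 3 vestibular libraries, with the mean of each tissue as a black bar and 1 CPM as a dotted line. Fgfr3 shows the widest gap, from 80.2 to 131 CPM in the cochlea to 5.02 to 6.11 CPM in the vestibule, while the libraries of the tissues overlap for Fgf8, Fgfr1, Spry4 and Etv5.

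The start sites of 3 called genes, Fgfr3, Fgf10 and Fgf3, are shown with that of Dusp6, a MAP kinase phosphatase induced by FGF signals, because Etv4 and Etv5 bind the ETS core GGAA. RefSeq promoters (GRCm38.p6) were found for 5 of the 10 genes. The sequences are on the + strand and run 5′ to 3′ from 250 bases before a RefSeq start up to that start, or up to the next annotated exon of the gene where one begins earlier. In GENCODE the Fgf3 and Fgf10 genes begin upstream of these RefSeq starts, so both stretches lie within the annotated gene, outside its exons. Capitals mark GGAA on either strand, read as TTCC on the other. They lie at chr5:33721474-33721673 for Fgfr3, at chr13:118714449-118714698 for Fgf10, at chr7:144838362-144838594 for Fgf3 and at chr10:99262981-99263230 for Dusp6.
Fgfr3: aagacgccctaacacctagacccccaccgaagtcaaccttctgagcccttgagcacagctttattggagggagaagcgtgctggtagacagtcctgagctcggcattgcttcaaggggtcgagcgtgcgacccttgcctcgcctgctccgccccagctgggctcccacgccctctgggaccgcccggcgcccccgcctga
Fgf10: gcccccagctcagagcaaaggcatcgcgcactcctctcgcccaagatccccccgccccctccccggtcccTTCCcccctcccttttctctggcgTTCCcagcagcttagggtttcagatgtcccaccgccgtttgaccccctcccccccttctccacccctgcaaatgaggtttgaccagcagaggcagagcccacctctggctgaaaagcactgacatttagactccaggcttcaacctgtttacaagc
Fgf3: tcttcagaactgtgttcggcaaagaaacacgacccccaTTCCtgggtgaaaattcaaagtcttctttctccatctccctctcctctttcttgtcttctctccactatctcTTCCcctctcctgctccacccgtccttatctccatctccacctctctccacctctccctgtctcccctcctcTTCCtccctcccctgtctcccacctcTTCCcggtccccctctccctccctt
Dusp6: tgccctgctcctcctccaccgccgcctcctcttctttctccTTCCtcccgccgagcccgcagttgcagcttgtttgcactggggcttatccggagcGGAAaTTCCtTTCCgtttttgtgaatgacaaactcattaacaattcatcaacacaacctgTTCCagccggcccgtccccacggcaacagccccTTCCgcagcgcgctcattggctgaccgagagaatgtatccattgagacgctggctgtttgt
The Fgfr3 stretch of 200 bases holds 0 cores, that of Fgf10 (250 bases) holds 2, that of Fgf3 (233 bases) holds 4 and that of Dusp6 (250 bases) holds 6. The full 250 bases before this Fgf3 start hold 5 cores. Those before this Fgfr3 start hold 1 core, and those before a second RefSeq start of Fgfr3 (chr5:33722056-33722305) hold 5. The core is common, since 93.5% of 32851 promoters hold it in the 250 bases before the start. The longer form CGGAAG, which contains the core, is in 13.6% of promoters, in 1 copy in the Dusp6 stretch and in 0 copies in the other stretches shown. These matches describe the letters only.

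Fgf10, a ligand of the sensory patches that signals mainly through Fgfr2, was the ligand with the highest level per length in both tissues. Its gene lies at chr13:118669791-118792115 on the + strand. Cochlear libraries had 138, 131 and 121 CPM of Fgf10, and vestibular libraries 56.3, 57.1 and 63.8 CPM. Every cochlear library was thus above every vestibular one. The means were 129.7 ± 8.82 and 59.1 ± 4.13 CPM (SD, n = 3 each), a log2 fold change of -1.25 (SE 0.14, adjusted p = 0.000234), or 2.38-fold higher in the cochlea.

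Fgf20 (chr8:40279166-40308331, - strand), the ligand of the developing organ of Corti, was also higher in the cochlea but at a low level. It had 54, 70 and 58 counts in the cochlear libraries and 27, 13 and 9 in the vestibular ones. These are 2.21 ± 0.223 and 0.554 ± 0.228 CPM, and the groups did not overlap. The log2 fold change was -2.09 (SE 0.31, adjusted p = 0.00131), or 4.26-fold. Fgf20 passed the filter of 1 CPM in 3 libraries only through the cochlear libraries, so a difference was built into its being tested. Its exons share 202 of 1678 bases with Micu3 on the other strand, a gene with 314 to 541 counts, and whether counting used the strand is not stated.

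Fgf3 (chr7:144838083-144844436, + strand), a ligand of otic induction, was the only one of the 10 genes that was higher in the vestibule. Cochlear libraries had 10.1, 9.83 and 10.03 CPM of Fgf3, a spread of 0.125 CPM (SD) around 9.97 CPM. Vestibular libraries had 17.3, 19.1 and 21.9 CPM, with a mean of 19.5 ± 2.34 CPM. All vestibular values were above all cochlear ones, with a log2 fold change of 0.85 (SE 0.17, adjusted p = 0.00547), or 1.80-fold.

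Fgf8 (chr19:45736798-45742915, - strand), the inner hair cell ligand, was detected in every library, with cochlear counts of 78, 106 and 121 and vestibular counts of 122, 153 and 109. Its levels of 3.67 ± 0.476 and 4.62 ± 1.2 CPM overlapped, and the log2 fold change of 0.21 (SE 0.25) was not called (adjusted p = 0.576).

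The make-up of the ligands differed between the tissues while their summed level overlapped. Over the 11 secreted ligands that were tested, the deposited RPKM values (counts corrected for library size and gene length) summed to 45.0 ± 3.28 in the cochlea against 40.8 ± 1.80 in the vestibule. Fgf10 made up 62.0 to 63.5% of that sum in the cochlear libraries and 30.9 to 32.4% in the vestibular ones. Fgf3 made up 9.09 to 10.5% and 18.8 to 22.1%, and Fgf1, an acidic FGF that binds all FGF receptors, made up 3.18 to 3.96% and 11.02 to 13.5%. The count ratio of Fgf10 to Fgf20 within libraries was 62.6, 53.8 and 60.7 in the cochlea and 70.2, 113 and 181 in vestibular libraries. Its mean log2 value differed by 0.90 (exact permutation p = 0.1, adjusted 0.125 over 5 ratios), with only 9 to 27 vestibular counts of Fgf20 behind it. With 1 library left out this difference ran from 0.57 to 1.22. Fgf20 passed the filter only through the cochlear libraries, so the ratio is given as a description only. The shares of Fgf8 overlapped, with 4.97 to 7.45% and 6.79 to 11.1%.

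Among the 14 other secreted ligands, 7 were tested, 3 were higher in the vestibule and 0 higher in the cochlea (15.8% and 11.6% of all genes tested), with a median log2 fold change of 0.68 against 0.005 for all genes tested. Fgf1 had 8.75, 6.77 and 6.19 CPM in the cochlea against 24.9, 20.4 and 21.9 CPM in the vestibule, a log2 fold change of 1.51 (SE 0.18, adjusted p = 0.000347). Fgf7, a mesenchymal ligand of epithelial Fgfr2, rose from 1.55 ± 0.142 to 3.88 ± 0.569 CPM from cochlea to vestibule (1.21, SE 0.23, adjusted p = 0.00508). Fgf16, a relative of Fgf9 and Fgf20, had 4, 4 and 3 counts in the cochlea against 49, 26 and 47 in the vestibule, with a log2 fold change of 3.27 (SE 0.41), and passed the filter only through the vestibular libraries. Fgf9, a ligand of the otic epithelium, was 9.58 ± 2.91 and 13.95 ± 2.26 CPM, with overlapping libraries and a log2 fold change of 0.42 (SE 0.23, adjusted p = 0.204). Of the 7 ligands under the filter, Fgf23, Fgf15, Fgf5 and Fgf17 are named after their values were seen, and none of them was in the main test. The 0 higher in the cochlea thus holds only for the 7 ligands that passed the filter. Fgf23 had 54, 30 and 16 cochlear counts against 1, 1 and 0 vestibular ones, and Fgf15 had 21, 18 and 18 against 1, 3 and 2. In the other direction, Fgf5 had 2, 8 and 5 cochlear counts against 20, 25 and 16 vestibular ones, and Fgf17 had 4, 4 and 8 against 12, 22 and 14. Of the 4 intracellular FGF homologous factors, which are not secreted, Fgf14 was higher in the vestibule (3.63 ± 1.21 and 12.2 ± 1.26 CPM, log2 fold change 1.63, SE 0.25, adjusted p = 0.00154), and the other 3 were not called.

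Fgfr3 (chr5:33721674-33737068, + strand), the receptor of pillar and Deiters cells and their precursors in the cochlea, had the largest difference of the 10 genes. Its libraries had 82.0, 80.2 and 131 CPM in the cochlea against 5.08, 6.11 and 5.02 CPM in the vestibule. The third cochlear library was the highest, and the lowest cochlear library was still far above the highest vestibular one. With means of 97.9 ± 29.1 and 5.41 ± 0.614 CPM, the log2 fold change was -4.29 (SE 0.23, adjusted p = 5.79e-06), or 19.6-fold higher in the cochlea. Leaving out the third cochlear library gave -4.05. Of 7 pillar and Deiters cell markers, 3 were called higher in the cochlea (Ngfr 6.94-fold, Rorb 5.20-fold and Hes6 1.28-fold), beside 11.6% of all genes tested. In the vestibule 1 of the 7 was called higher (S100a1, 2.55-fold), beside 15.8% of all genes tested, and 3 were not called. Rorb passed the filter only through the cochlear libraries. Their summed level, most of it Cryab and S100a1, was 467 to 515 CPM in cochlear and 574 to 789 CPM in vestibular libraries. That of the supporting cell markers, with Gjb2 the largest part, was 0.457 times as high in the vestibule. Fgfr3 shares 998 of 7158 exonic bases with G630022F23Rik on the other strand, whose counts were not analysed here.

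Fgfr1 (chr8:25513654-25575718, + strand), the receptor through which Fgf20 acts in the organ of Corti, had the highest mean level per length of the 10 genes in both tissues. In both, its libraries overlapped those of Etv5, the next gene. The cochlear libraries had 265, 204 and 384 CPM of Fgfr1 and the vestibular ones 345, 319 and 266 CPM. The cochlear values spanned all the vestibular ones. The log2 fold change of 0.01 (SE 0.21, adjusted p = 0.979) had no stable sign, as leaving out 1 library gave -0.16 to 0.26 and DESeq2 size factors gave -0.0093. Setting Fgfr3 against Fgfr1 within each library, the count ratio was 0.310, 0.393 and 0.342 in the cochlea against 0.0147, 0.0192 and 0.0189 in the vestibule. The mean log2 ratio differed by -4.31 between the tissues, with an exact two-sided permutation p of 0.1, the smallest that 3 against 3 libraries can give, and 0.125 adjusted over the 5 ratios tested.

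The 4 signalling receptors together reached 79.0 ± 25.2 RPKM in the cochlea against 93.1 ± 14.2 RPKM in the vestibule, and the libraries overlapped. Fgfr1 held 44.0 to 44.7% of this sum in the cochlear libraries and 40.2 to 42.6% in the vestibular ones. Fgfr3 held 16.3 to 20.3% and 0.708 to 0.947%. Fgfr2, the receptor of Fgf10 and Fgf3 in the otic epithelium, held 11.7 to 14.5% and 28.0 to 31.0%. Fgfr4 held 21.2 to 26.5% and 27.5 to 29.1%. Fgfr3 held more than Fgfr2 in every cochlear library and less in every vestibular one.

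Fgfr2 itself was at 71.9 ± 15.7 CPM in the cochlea against 199.9 ± 39.7 CPM in the vestibule, a log2 fold change of 1.35 (SE 0.18, adjusted p = 0.000689). Its ratio to Fgfr1 within libraries differed by 1.31 on the log2 scale (exact permutation p = 0.1, adjusted 0.125). Fgfr4 had 68.5, 42.8 and 97.9 CPM in the cochlea against 101, 101 and 77.6 CPM in the vestibule and was not called (0.31, SE 0.25, adjusted p = 0.401). Without the third cochlear library, which also stood apart in skeletal muscle markers, the log2 fold change of Fgfr4 was 0.61 and it was called (adjusted p = 0.0487). Of the 10 other receptors and co-receptors 9 were tested, 2 were higher in the cochlea and 3 higher in the vestibule (11.6% and 15.8% of all genes tested), with a median log2 fold change of 0.31. Those higher in the cochlea were Fgfrl1, a receptor without a kinase domain (-0.54, SE 0.12, adjusted p = 0.0106), and Flrt2, a membrane protein of the FLRT family (-0.79, SE 0.18, adjusted p = 0.00998), whose call was lost without the second vestibular library (adjusted p = 0.0556). Fgfbp1, which releases FGFs from the matrix, was higher in the vestibule at 4.26 ± 0.219 against 23.5 ± 11.7 CPM (2.36, SE 0.35, adjusted p = 0.00131), as was Kl, the co-receptor of endocrine FGFs, at 0.552 ± 0.1003 against 2.12 ± 0.0803 CPM (1.81, SE 0.26, adjusted p = 0.00106). Kl passed the filter only through the vestibular libraries.

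**Figure D2:**
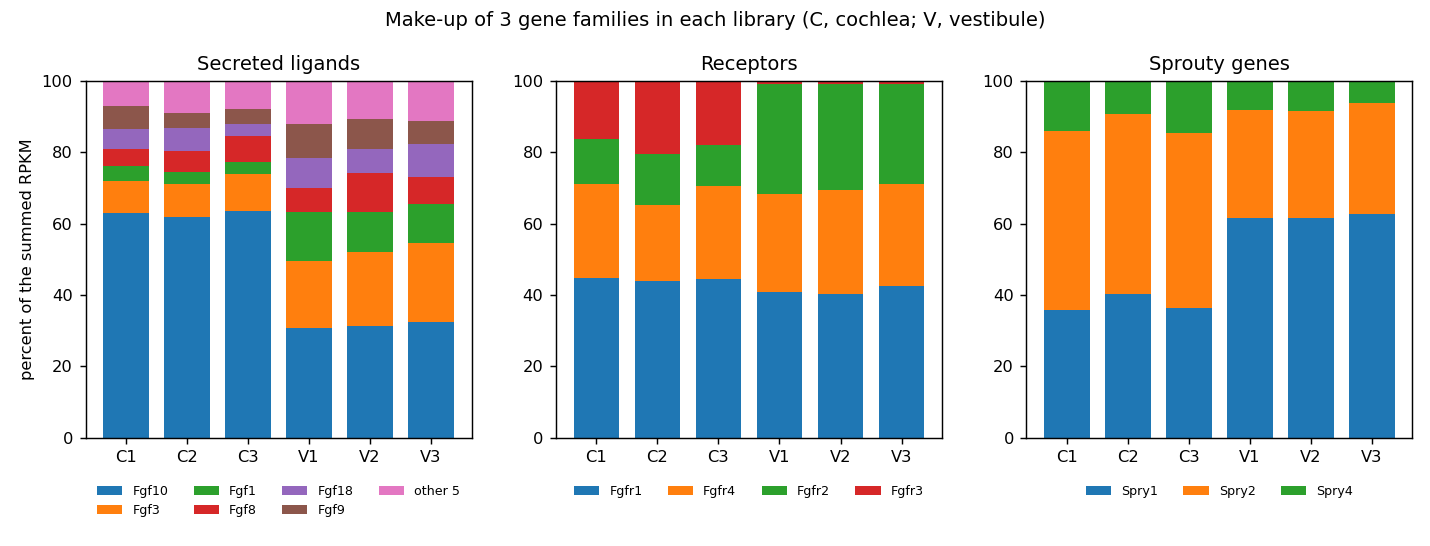
Percent of the summed RPKM of the 11 secreted ligands, the 4 receptors and 3 Sprouty genes held by each gene, with one stacked bar per library (C1 to C3, cochlea; V1 to V3, vestibule). Fgf10 takes up most of the ligand bar in the cochlea only, Fgfr3 is nearly absent from the vestibular receptor bars, and Spry1 takes the place of Spry2 as the leading Sprouty gene in the vestibule.

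Spry2 (chr14:105891947-105896819, - strand), an inhibitor that FGF signals induce, had 33.8, 40.5 and 38.2 CPM in the cochlea against 26.2, 29.2 and 32.8 CPM in the vestibule. The groups did not overlap, but their nearest libraries differed by little. The log2 fold change was -0.47 (SE 0.16, adjusted p = 0.0613) and was not called. It was called by DESeq2 (adjusted p = 0.0373) and without the third vestibular library (adjusted p = 0.0398). Spry4 (chr18:38586247-38601415, - strand), a second inhibitor of the family, had 20.8, 16.1 and 24.7 CPM in the cochlea against 15.5, 18.03 and 14.1 CPM in the vestibule, with overlap. Its log2 fold change was -0.49 (SE 0.17, adjusted p = 0.0712). Spry4 was called by DESeq2 (adjusted p = 0.0455) and without the second cochlear library (adjusted p = 0.0438). The ratio of Spry4 to Spry2 within libraries was 0.615, 0.397 and 0.648 in the cochlea against 0.592, 0.617 and 0.430 in the vestibule, and it overlapped (exact permutation p = 1).

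Spry1, of the same family, went the other way: 33.7, 45.1 and 39.4 CPM in the cochlea against 74.5, 83.7 and 92.2 CPM in the vestibule, a log2 fold change of 0.96 (SE 0.17, adjusted p = 0.0034). Of the summed RPKM of Spry1, Spry2 and Spry4, Spry2 held 49.2 to 50.5% in the cochlear libraries and 30.0 to 31.1% in the vestibular ones, Spry1 35.8 to 40.4% and 61.6 to 62.8%, and Spry4 9.11 to 14.5% and 6.09 to 8.41%. A value for Spry3 was not analysed here.

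Etv4 (chr11:101769742-101785371, - strand), a transcription factor of the Pea3 group that FGF signals induce, had 27.6, 32.0 and 31.2 CPM in the cochlea against 24.2, 24.3 and 21.8 CPM in the vestibule. All cochlear libraries were above all vestibular ones, at 30.3 ± 2.36 against 23.4 ± 1.41 CPM. The log2 fold change was -0.49 (SE 0.13, adjusted p = 0.0238), or 1.41-fold, and this call was the least stable of the 5 among these genes. It was lost without the second cochlear library (adjusted p = 0.0787) and without the first (0.0770), the second (0.109) or the third (0.0662) vestibular library. It was also lost without TMM scaling (0.0679), with a replicate block (0.0978) and by limma on the deposited log2 RPKM (0.0640). Over all settings its adjusted p ran from 0.00794 to 0.109.

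Etv5 (chr16:22381309-22439719, - strand), the partner of Etv4 in many FGF-responsive tissues, had 113, 114 and 151 CPM in the cochlea against 125, 134 and 148 CPM in the vestibule, with overlap. The log2 fold change was -0.01 (SE 0.16, adjusted p = 0.977), and its sign turned without TMM scaling (0.10) and when 1 library was left out (-0.10 to 0.12). The ratio of Etv4 to Etv5 within libraries was 0.244, 0.280 and 0.207 in the cochlea against 0.194, 0.181 and 0.147 in the vestibule, without overlap, and its mean log2 value differed by -0.48 (exact permutation p = 0.1, adjusted 0.125). Etv1, the third gene of the group, was 55.8 ± 5.69 and 48.1 ± 2.57 CPM and was not called (-0.33, SE 0.13, adjusted p = 0.0918).

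Among the 12 other feedback inhibitors and targets that were tested, 4 were higher in the vestibule and 0 in the cochlea (15.8% and 11.6% of all genes tested), with a median log2 fold change of 0.02. Beside Spry1 these were Dusp6 and Dusp4, which dephosphorylate MAP kinases, and Il17rd (also called Sef), a membrane inhibitor of FGF signalling. Dusp6 had 65.8, 64.3 and 60.4 CPM in the cochlea against 108, 103 and 112 CPM in the vestibule (0.65, SE 0.12, adjusted p = 0.00457). Dusp4 was 8.79 ± 1.44 and 21.7 ± 0.285 CPM (1.18, SE 0.18, adjusted p = 0.0013), and Il17rd was 119.7 ± 11.1 and 219.5 ± 13.3 CPM (0.76, SE 0.12, adjusted p = 0.00161). Of the members that FGF signals induce, Spry2, Spry4 and Etv5 were not called, and Etv4 was higher in the cochlea by a call that 7 other settings did not give.

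Of 19 adaptors and members of the MAP kinase cascade, all tested, 1 was called, where 27.4% of all genes tested were. This was Nras, a RAS protein, at 139.7 ± 5.26 and 101.3 ± 2.26 CPM (-0.58, SE 0.11, adjusted p = 0.00531). Of 13 genes that make or trim heparan sulfate, 12 were tested and 3 called, again beside 27.4% of all genes tested. Hs6st3, a 6-O-sulfotransferase, had 57, 49 and 52 counts in the cochlea against 24, 4 and 15 in the vestibule (-2.07, SE 0.43, adjusted p = 0.00736), and passed the filter only through the cochlear libraries. Ndst3, an N-deacetylase and N-sulfotransferase, was 4.99 ± 1.17 and 1.69 ± 0.670 CPM (-1.67, SE 0.30, adjusted p = 0.00351). Glce, the glucuronyl epimerase, was higher in the vestibule at 78.1 ± 7.41 against 117.1 ± 6.19 CPM (0.47, SE 0.12, adjusted p = 0.0195). This call was lost without the second cochlear (adjusted p = 0.0746) or the second vestibular library (0.0527) and with a replicate block (0.0965).

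Over the 6 lists of other pathway genes, 72 of 73 genes had a row and 63 were tested, with 5 higher in the cochlea, 12 higher in the vestibule and a median log2 fold change of 0.03. These are 7.94% and 19.05% of the genes tested, set against 11.6% and 15.8% of all genes tested. The number higher in the cochlea depended on single libraries, being 8 without the third cochlear and 3 without the second vestibular library.

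**Figure D3:**
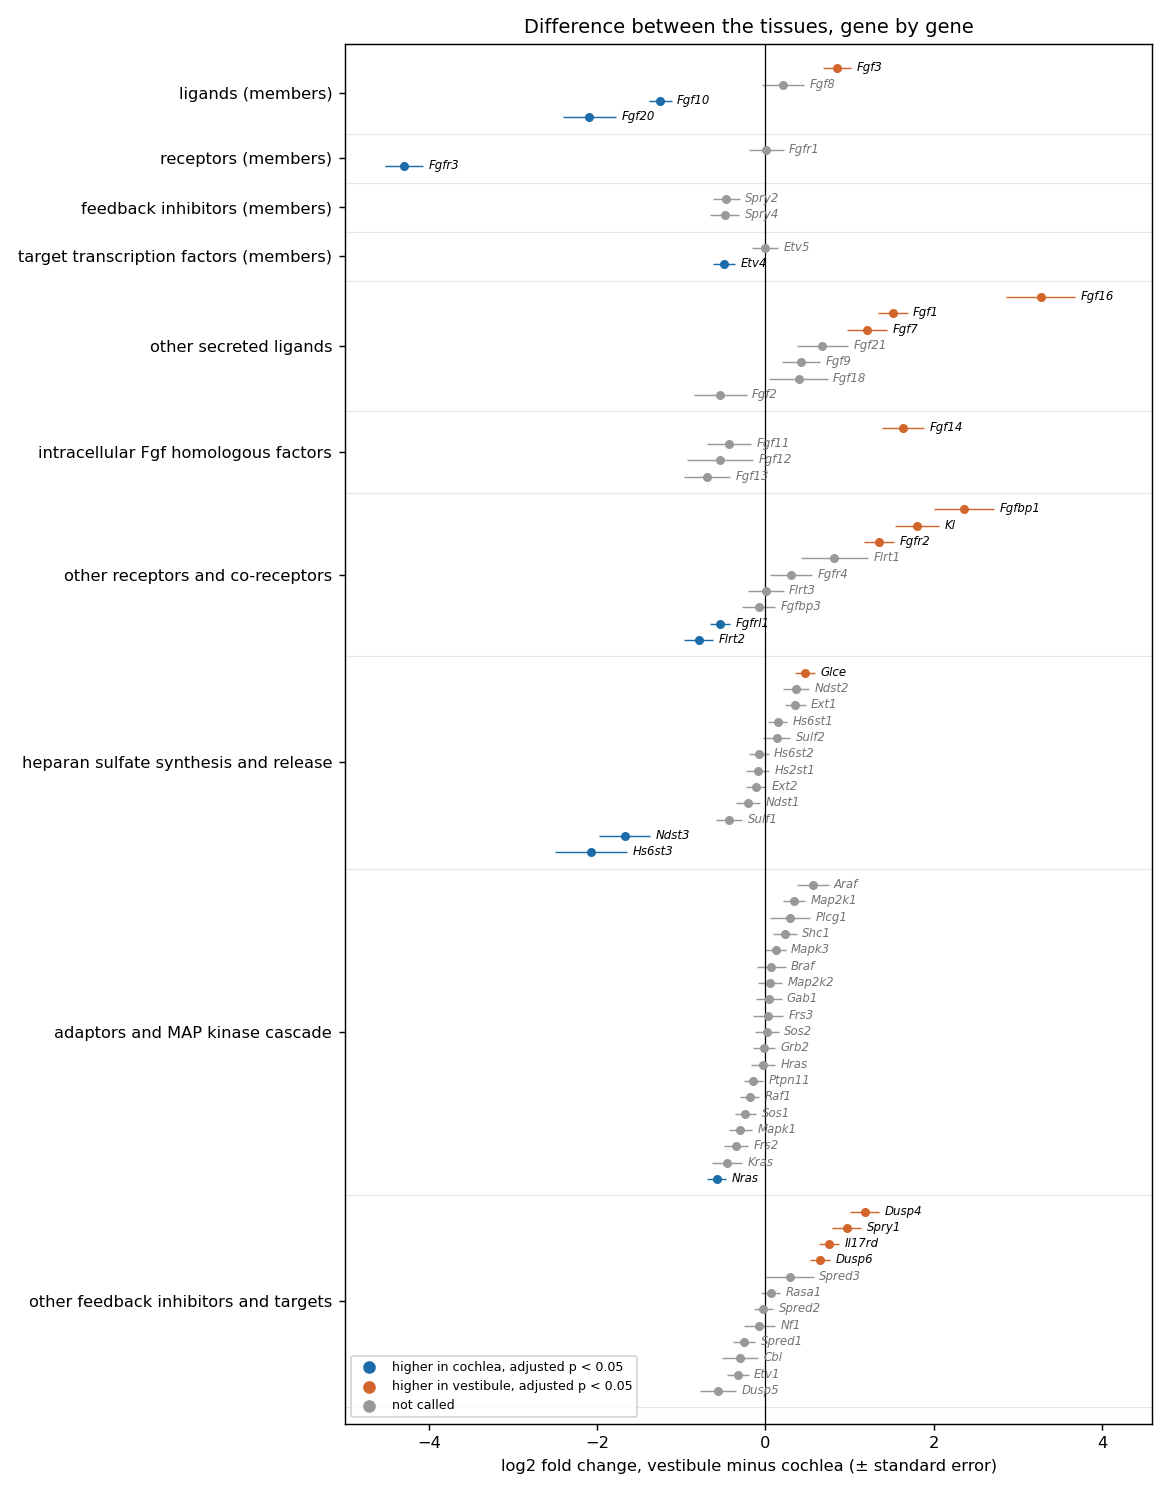
Log2 fold change, vestibule minus cochlea, with its standard error, of the 10 genes (top 4 groups) and of the 63 other pathway genes tested, grouped by role and coloured by call. Fgfr3 lies farthest to the left at -4.29 and Fgf16 farthest to the right at 3.27, and 18 of the 19 adaptors and cascade genes are not called.

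Per length, the order of the 10 genes by mean RPKM in the cochlea was Fgfr1 (35.1), Etv5 (30.8), Fgf10 (28.2), Spry2 (18.01), Fgfr3 (14.2), Etv4 (9.77), Spry4 (4.48), Fgf3 (4.30), Fgf8 (2.73) and Fgf20 (1.32). The libraries of neighbours overlapped between Fgfr1 and Etv5, Etv5 and Fgf10, Spry2 and Fgfr3, and Spry4 and Fgf3. In the vestibule Fgfr1 (38.3) and Etv5 (33.1) again came first, followed by Spry2 (14.1), Fgf10 (12.9), Fgf3 (8.38), Etv4 (7.56), Spry4 (3.47), Fgf8 (3.44), Fgfr3 (0.785) and Fgf20 (0.336). There the neighbours that overlapped were Fgfr1 and Etv5, Spry2 and Fgf10, Fgf3 and Etv4, and Spry4 and Fgf8. Fgfr3 thus moved from the fifth place in the cochlea to the ninth in the vestibule.

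The calls of Fgf3, Fgf10 and Fgfr3 held in every setting tried, with highest adjusted p-values of 0.0312, 0.00571 and 0.000327. Fgf20 was tested in most settings only because it was high in the cochlea, so those calls do not speak to its stability, and without any 1 cochlear library it fell under the filter and was not tested. With no filter on low counts its log2 fold change was -2.12 (adjusted p = 0.000205).

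**Figure D4:**
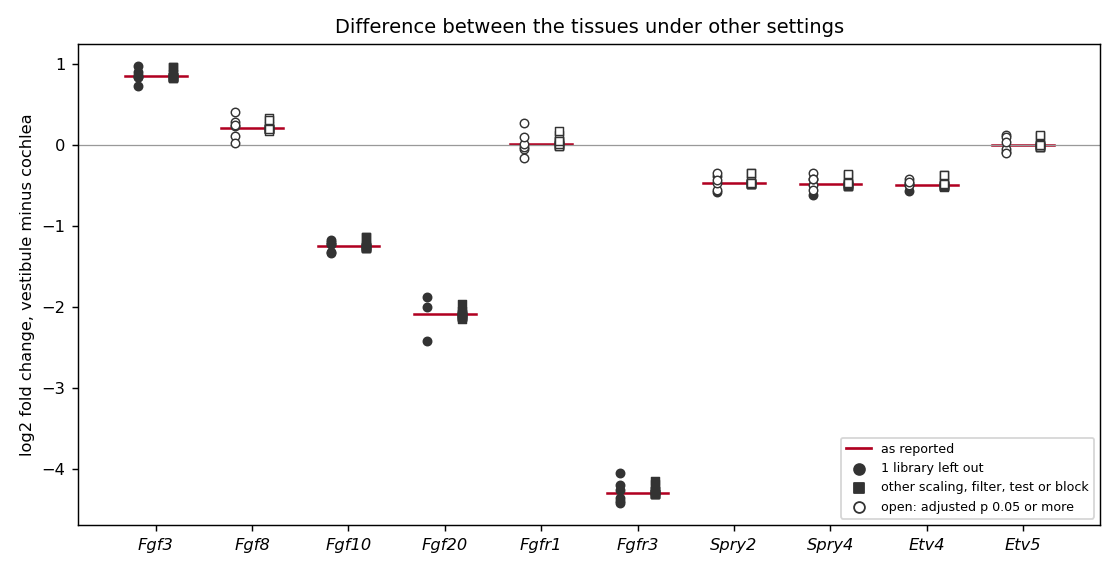
Log2 fold change, vestibule minus cochlea, of the 10 genes as reported (red line), with 1 library left out (circles) and with another scaling, filter, test or replicate block (squares), where filled marks have an adjusted p under 0.05. Marks of Fgf3, Fgf10 and Fgfr3 are all filled, those of Fgf8, Fgfr1 and Etv5 all open, and those of Spry2, Spry4 and Etv4 mixed. The marks shown for Fgf20 are filled, but it has none without any 1 cochlear library, where it fell under the filter.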

How the data were processed

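RNA of 3 cochlear and 3 vestibular samples was sequenced as stranded mRNA libraries. Per the labels and the submitters' processing notes, the authors aligned reads to GRCm38 with TopHat2 2.1.0 and SAMtools 0.1.18, counted them per Ensembl gene with HTSeq 0.5.4p5 and used edgeR 3.4.2. The deposited counts were whole numbers with no normalization, and 18.5 to 20.6% of each file's total stood on lines that name no gene (no feature, ambiguous and the like), which were left out of library sizes. The authors also deposited a matrix of log2 RPKM values, which was used for levels per length and 1 alternative. Whether counting used the strand is not stated.

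From the counts, genes with at least 1 CPM in at least 3 libraries (14723) were tested with edgeR 4.0.16 (R 4.3.3; TMM scaling, quasi-likelihood test, tissue as the only term, no covariate), with Benjamini-Hochberg adjustment over all of them and a threshold of 0.05. The biological coefficient of variation was 0.195. A ratio within libraries was compared by an exact two-sided permutation test with scipy 1.17.1. Alternatives were other scalings, filters and tests (DESeq2 1.42.0, limma 3.58.1), a replicate block and leaving out each library. Libraries of 1 tissue differed by more than counting noise, so none was taken for a library deposited more than once. This does not show that they are separate biological samples. Depth limits low genes most, as at 1 CPM a library holds 24.5 to 33.7 counts. Symbols, positions and exonic lengths came from GENCODE vM21 and promoters from RefSeq (GRCm38.p6). Counts were matched by Ensembl gene ID, and 37607 of 39179 had a symbol.

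The members and lists were chosen with earlier results of these data known. Beside the 10 genes, the text names up to 4 called genes with the largest change per pathway list, and Fgfr2, Fgfr4, Dusp6, Spry1 and Fgf9 whatever their values. Fgfrl1, Etv1, Fgf5, Fgf15, Fgf17 and Fgf23 fall outside that rule and were named after their values were seen.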

Additional observations from a re-analysis of the deposited data

How the results depend on the processing

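Of the values given for the 10 genes under other settings, 133 kept their direction and side of the threshold, 7 lost and 4 gained a call, and 13 turned direction, all 13 of them in Fgfr1 and Etv5, which were not called in any setting. Fgfr1 was -0.009253 with DESeq2 size factors, -0.007126 without a filter, -0.0004126 with filterByExpr and -0.009249 with DESeq2, and ran from -0.164 to 0.2639 with 1 library left out. Etv5 was 0.1041 without TMM, 0.01114 with upper quartile scaling and 0.1142 with limma on the log2 RPKM, and ran from -0.1022 to 0.1166 with 1 library left out. The difference between the tissues in the mean log2 ratio of Spry4 to Spry2 ran from -0.2269 to 0.1597 with 1 library left out. The number of the 10 genes higher in the cochlea ran from 3 to 6 and was 6 with DESeq2. The number of other pathway genes higher in the cochlea ran from 3 to 8 with 1 library left out and was 9 at an adjusted p under 0.1 with at least 1.3-fold. Of the values of named pathway genes, 256 kept their direction and side of the threshold, 4 lost and 1 gained a call. The cause was not tested in any of these.

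Replicate numbers did not pair the libraries: the deviations of same-numbered libraries correlated at -0.175, -0.260 and -0.474. With a replicate block, 1009 genes were higher in the cochlea and 1609 in the vestibule, against 1711 and 2325 without it, Etv4 was -0.4893 (adjusted p = 0.0978) and Glce 0.4693 (0.0965). No library of the cochlea correlated best with the vestibular library of its own number.

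Settings for the named pathway genes and the receptor shares were added after seeing the data. Fold changes of genes near 1 CPM rest on few counts.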
